A study of Mus musculus with 7 samples.

Results

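Isolated peaks are short stretches of open chromatin that stand alone in the genome, with no other open site nearby. They were chosen by position and width only. A peak on chromosomes 1 to 19 was kept if it was narrower than 1200 bases and no other peak midpoint lay within 75 kb on either side. This gave 1560 of the 98723 peaks of the deposited table, or 1.58%, and 1.71% of the 91185 peaks of those chromosomes under the same width limit. The remaining 89625 peaks under the limit served for comparison.

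The peaks come from Omni-ATAC-seq, an assay whose transposase inserts adapters into accessible DNA, done on blood-forming stem cells of C57BL/6 mice. Marrow enriched for cKit came from donors of 24 months of age, was infected with a control lentivirus or with one that expresses Runx3, and was transplanted into lethally irradiated mice. Donor cells that carried the vector (LSK cells with CD150, CD45.2 and hCD2 but without Flt3 and CD48) were sorted after 16 weeks, so age, strain, infection and transplantation are common to both groups. The control group has 4 libraries, with numbers 1 to 4, and the Runx3 group has 3, with numbers 1, 3 and 4. The labels do not tie libraries to animals, so p-values reflect only how these libraries vary, which may be technical. The sorted cells could not be checked against marker genes, because the table names peaks by coordinates alone.

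Most open sites of a blood stem cell lie in gene-rich chromatin, at promoters and in enhancer clusters. Long stretches between genes are largely closed, often contact the nuclear lamina and replicate late, and open sites there are few. Runx3 is a transcription factor of the RUNX family that binds DNA together with Cbfb and can activate or repress its targets. Peak coordinates are in mm9, and no genome of that build was used here, so neither base composition, motifs nor nearby genes were analysed.

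The files show total counts from 1738164 to 3758422 per library, with lower totals on average with Runx3 (mean 2238860) than in controls (mean 3113950). Earlier results of these data showed that control 1, control 2 and Runx3 1 share peaks that are nearly absent from the other 4 libraries. Below, set 1 means those 3 libraries and set 2 the remaining 4. Control 1 stood apart from the other controls in several of the measures below. Results that rest on it, or on Runx3 4, are given with and without that library.

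The isolated peaks were far from their neighbours. Their median distance to the nearest other midpoint was 120.6 kb, where it was 3.76 kb for the other peaks. Of the 1560, 368 were more than 200 kb from any other peak and 9 more than 1000 kb. Only 8 were the first or last peak of a chromosome and so had a neighbour on 1 side. Chromosome 3 had the highest share, with 117 isolated peaks or 2.41% of its peaks under the width limit, and chromosome 11 the lowest, with 44 or 0.694%. They were also narrow, with a median of 305 bases and quartiles of 232 and 462, against 374 for the other peaks. The narrowest width in the table, 200 bases, was held by 122 of them (7.82%) and by 3.76% of the other peaks.

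Isolated peaks were weakly accessible, and more weakly than other peaks of the same width. Accessibility is given as TMM-normalised CPM. These are the reads in a peak relative to the reads of the library in all peaks deep enough to test, after scaling between libraries. The median of the mean CPM was 2.48 over isolated peaks and 4.48 over the other peaks. It was 3.26 over the other peaks when classes of 50 bases of width were weighted to hold the same shares as among isolated peaks. Per 1000 bases of width, the medians were 7.91 CPM and 9.94 CPM for isolated and width-weighted other peaks. The median CPM of isolated peaks was 2.07, 2.34, 2.62 and 2.30 in controls 1 to 4. With Runx3 it was 2.50, 2.53 and 3.18 in libraries 1, 3 and 4. Each of these medians lay below the width-weighted median of its own library, by a ratio from 0.667 in control 1 to 0.875 in Runx3 4. The mean log2 ratio was -0.36 ± 0.14 (SD, n = 7), lower in 7 of 7 libraries (two-sided exact sign-flip permutation test, p = 0.0156, the smallest that 7 libraries can give). The medians stand on few reads, from 4 in control 1 and Runx3 1 to 9 in control 3, so that 1 read moves them by a large step.

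The distance of 75 kb was not a boundary in level. The 137 peaks between 70 and 75 kb from their neighbour had a median of 2.97 CPM, and the 137 between 75 and 80 kb had 2.999 CPM. With widths weighted alike, the median was 3.17 CPM for peaks within 1 kb of a neighbour, 4.51 CPM for peaks 1 to 2 kb from a neighbour, 4.08 CPM at 2 to 5 kb and 2.76 CPM at 5 to 10 kb. At 50 to 75 kb it was 2.46 CPM and at 100 to 150 kb 2.50 CPM. Beyond 400 kb it was 2.67 CPM. The level was thus highest at 1 to 5 kb, and from 5 kb on it differed little between these classes. The spread between libraries behaved differently, being nearly level up to 50 kb and higher beyond it.

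**Figure D1:**
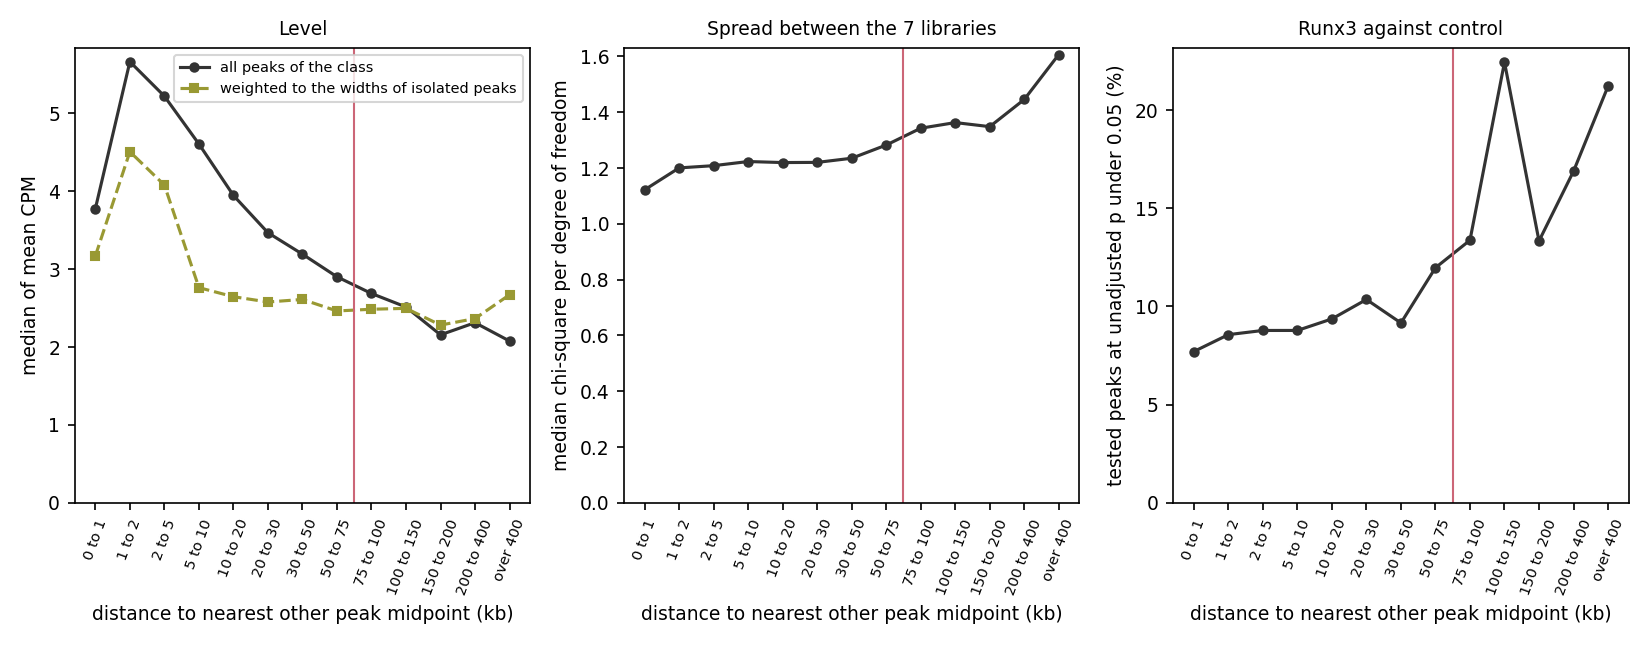
Peaks of chromosomes 1 to 19 under the width limit, in classes of distance to the nearest other midpoint (x axis, kb); the red line marks 75 kb, and peaks to its right are the isolated peaks. The panels give the median of the mean CPM, the median chi-square per degree of freedom over the 7 libraries, and the percent of tested peaks at an unadjusted p under 0.05 (edgeR). Squares in the first panel weight each class to the widths of isolated peaks. The unweighted level is 3.78 CPM within 1 kb, 5.66 CPM at 1 to 2 kb and 2.08 CPM beyond 400 kb, where the width-weighted one is 2.67 CPM, while the other measures are highest in classes beyond 75 kb.

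A few isolated peaks were strongly accessible. Of the 1560, 62 (3.97%) reached 21.4 CPM, the 90th percentile of the other peaks, against 5.50% of the width-weighted other peaks. The highest was chr5:60433887-60434402, at 414.0 CPM on average, which ranked 1 among all peaks of the table, ahead of the next at 230.2 CPM. Controls 1 to 4 held 918, 749, 1079 and 891 of its reads, and Runx3 1, 3 and 4 held 1139, 1022 and 927. These counts stayed within a narrow range while library totals differed, so the shallowest library, Runx3 1, had the highest level (710.6 CPM) and control 4 the lowest (256.2 CPM). Its log2 fold change with Runx3 was 0.64 ± 0.30 (SE) and did not pass the test (edgeR adjusted p = 0.66). This peak alone made up 5.17% of the summed CPM of isolated peaks.

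Of the next 5 in level, 3 were highest in control 3. The peak chr8:15519701-15520196 had 44.4, 98.5, 150.5 and 90.6 CPM in controls 1 to 4 and 58.6, 68.3 and 49.5 CPM with Runx3. The peak chr1:104524660-104524989 had 42.3, 73.2, 102.7 and 70.2 CPM in controls and 47.4, 67.0 and 59.9 CPM with Runx3. At chr18:85867242-85867752 the controls had 29.9, 69.3, 105.4 and 68.1 CPM and the Runx3 libraries 36.2, 46.8 and 46.7 CPM. In all 3 the lowest library was control 1, the groups overlapped, and no difference with Runx3 passed (edgeR adjusted p = 0.76, 0.86 and 0.78). The other 2 of these 5 were more even across libraries. The peak chr15:43308435-43309385 ran from 53.0 to 74.4 CPM over the 7 libraries, and chr8:48618377-48619466 from 49.9 to 69.0 CPM. The even peaks were 951 and 1090 bases wide, while the uneven ones, with chr5, were 330 to 516 bases wide.

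The most distant peaks differed widely in level. Their mean CPM was 12.7 and 14.1 on chromosome 14, 4.39 on chromosome 1 and 1.31 on chromosome 15. Over all isolated peaks the median was 2.48 CPM and the 90th percentile 10.5 CPM. The peak farthest from any other, by 1659 kb, was chr14:83153064-83153441, with 13.3 ± 3.34 CPM in controls (SD, n = 4) and 11.996 ± 3.49 with Runx3 (SD, n = 3). On the same chromosome, chr14:110075359-110075587 lay 1506 kb from its neighbour and had 12.6 ± 2.19 and 16.2 ± 4.67 CPM. The peak chr1:28110837-28111213, 1369 kb away from its neighbour, had 0 reads in control 1 and 9, 17 and 27 in controls 2 to 4. The peak chr15:14890721-14890957, 1484 kb away, held 1 to 5 reads per library and was too weak to test. Near the median of the tested isolated peaks, 7.19 CPM, chr17:58893720-58894329 had 5.89 ± 2.36 CPM in controls and 8.95 ± 2.09 with Runx3. Its counterpart at the median, chr6:38110164-38110780, had 7.42 ± 2.17 and 6.84 ± 1.21 CPM. Both pairs of groups overlapped.

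Counts of isolated peaks varied more between libraries than counts of other peaks of like width and depth. The 7 counts of a peak were set against the library totals by a chi-square per degree of freedom, which has a mean of 1 where only counting error acts. The median then lies below 1, and lower with fewer libraries. Medians over 7, 4 and 3 libraries are therefore not comparable with each other or with 1. Over all 7 libraries the median was 1.38 for isolated peaks and 1.16 for other peaks weighted to the same widths and mean counts. Within the 4 controls the medians were 1.21 and 1.03, and within the 3 Runx3 libraries 0.968 and 0.837. A value above 4 was found in 123 isolated peaks (7.88%) and in 2.33% of the weighted other peaks. The excess was present at mean counts from 2 to 64 per library. At 64 to 128 the 37 isolated peaks had a lower median (1.29) than the other peaks (1.51), but more values above 4 (16.2% against 10.8%). At 128 or more the 7 isolated peaks had a median of 15.8, against 2.15 in the other peaks. Without control 1 the medians were 1.31 and 1.11, and without Runx3 4 they were 1.33 and 1.13. In 22 isolated peaks (1.41%) a single library held more than 50% of the summed CPM, against 0.482% of the weighted other peaks. These are descriptions over peaks of the same libraries and carry no test.

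**Figure D2:**
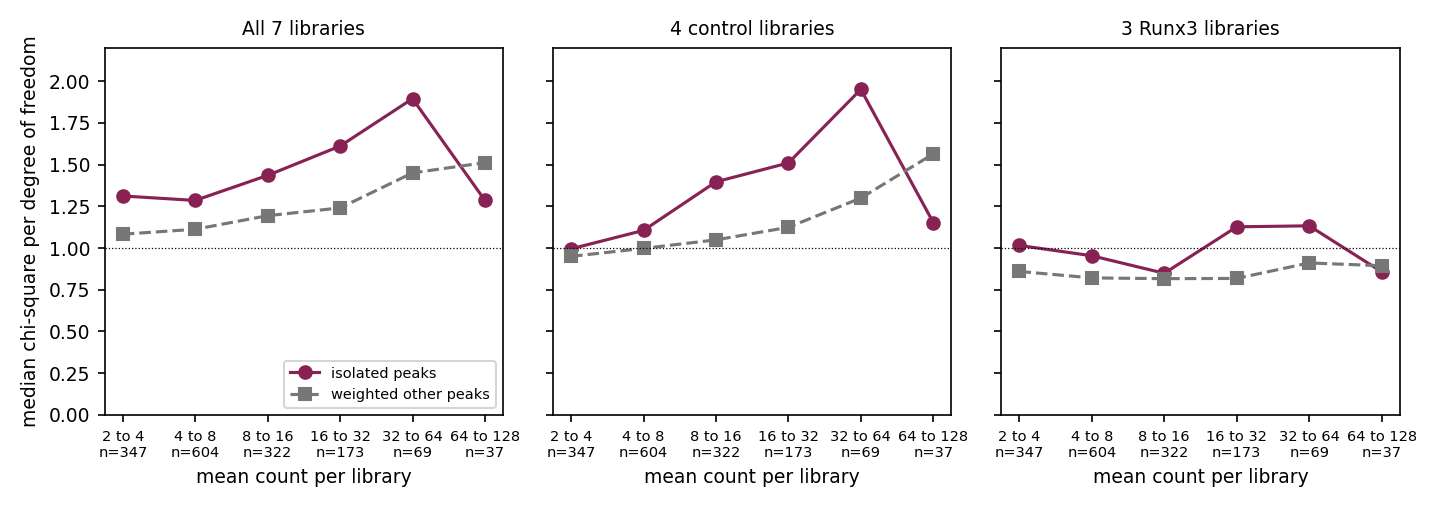
Median chi-square per degree of freedom (y axis) against classes of mean count per library (x axis, with the number of isolated peaks), for all 7, the 4 control and the 3 Runx3 libraries. Circles are isolated peaks and squares other peaks weighted to the same widths and counts. The dotted line is 1, the mean (not the median) where only counting error acts. Over all 7 libraries the circles lie above the squares except at 64 to 128 counts.

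The least even tested peaks followed the library sets and not the vector. At least 8-fold apart between set 1 and set 2, with 0.5 CPM added, were 57 peaks of the table, and 6 of them were isolated, all higher in set 1. That is 10.5% of those 57 peaks and 0.385% of isolated peaks, where 0.0547% of the other peaks were in the list. The peak chr14:104736074-104736333 held 234 and 178 reads in controls 1 and 2 and 82 in Runx3 1, and at most 1 in each library of set 2. The peak chr1:45007971-45008231 held 195, 168 and 65 reads in those 3 libraries and at most 9 in any other. At chr13:27297848-27298092 the 3 libraries held 97, 74 and 31 reads, and at chr16:72804538-72804752 they held 103, 53 and 7, with at most 1 elsewhere. These peaks were 215 to 261 bases wide. The 6 peaks took 5.77% of the reads of isolated peaks in control 1, 2.97% in control 2 and 1.81% in Runx3 1, and no more than 0.0415% in each of the other 4.

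The share of counts in isolated peaks was higher on average with Runx3, but the groups overlapped. It was 0.650%, 0.731%, 0.771% and 0.719% of counts on chromosomes 1 to 19 in controls 1 to 4, and 0.796%, 0.739% and 0.826% in Runx3 1, 3 and 4. Control 3 lay above Runx3 3, and control 1 was the lowest library. The difference of the means was 0.0695 percentage points, or 0.0469 without control 1 and 0.0499 without Runx3 4. The means were 0.718% ± 0.0503 (SD, n = 4) and 0.787% ± 0.0446 (SD, n = 3; two-sided exact permutation test over 35 splits, p = 0.11, where 0.0571 is the smallest possible). Over other peaks weighted to the same widths and mean counts the shares were 0.738% ± 0.0127 (SD, n = 4) and 0.742% ± 0.0217 (SD, n = 3; exact permutation p = 0.86).

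Divided by the share of these weighted peaks, the share of isolated peaks was 0.895, 0.978, 1.03 and 0.989 in controls 1 to 4 and 1.06, 1.03 and 1.09 with Runx3. Every Runx3 library lay above every control, but Runx3 3 exceeded control 3 by only 0.00265. The exact permutation p was 0.0571, the smallest possible, and 0.15 after adjustment over the 8 values compared in this way. Without the peak chr5:60433887-60434402 the groups overlapped and the difference went from 0.0882 to 0.0651 (exact permutation p = 0.23). Without control 1 the difference was 0.0589, with no Runx3 value below a control, and without Runx3 4 it was 0.0717. Within set 1 the ratio was 0.936 on average in controls and 1.06 in Runx3 1, and within set 2 it was 1.01 and 1.06.

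**Figure D3:**
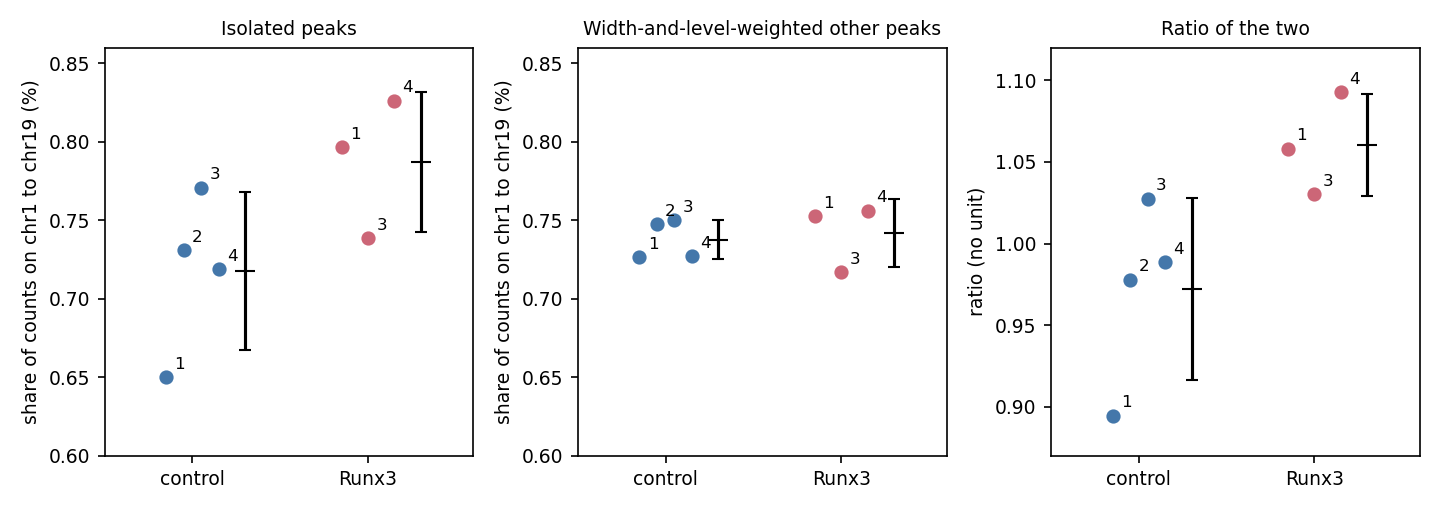
Share of counts on chromosomes 1 to 19 (y axis, %) in isolated peaks and in other peaks weighted to the same widths and mean counts, and the ratio of the shares, by vector. Points are libraries with their numbers and bars are mean ± SD (n = 4 and 3); the y axes do not start at 0. The ratio runs from 0.895 to 1.03 in controls and from 1.03 to 1.09 with Runx3.

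The median level of isolated peaks relative to width-weighted other peaks was likewise nearer to 1 on average with Runx3, but the groups overlapped. The log2 ratio was -0.44 ± 0.12 in controls (SD, n = 4) and -0.25 ± 0.07 with Runx3 (SD, n = 3). The exact permutation p was 0.11, where 0.0571 is the smallest possible. The difference in log2 ratio was 0.192, or 0.142 without control 1 and 0.165 without Runx3 4. In control 1, 7.69% of isolated peaks held no read, against 1.15% to 4.17% in the other 6 libraries. Of the width-weighted other peaks, 3.04% held no read in control 1, and 0.70% to 3.41% in the other 6. The part of such empty peaks in the differences above was not tested.

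Peak by peak, 2 isolated peaks passed the test between vectors. The low-count filter kept 498 of the 1560 (31.9%), against 44.3% of the width-weighted other peaks, and the 1062 left out had a median mean count of 4.71 reads per library. Of the 498, 1 peak rose and 1 fell with Runx3 at an adjusted p under 0.05 (edgeR quasi-likelihood test), where 0.033% and 0.04% of all 57504 tested peaks did.

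The peak that rose was chr17:19795448-19795754, 232 kb from its nearest neighbour. It held 10, 8, 5 and 3 reads in controls 1 to 4 and 19, 16 and 26 in Runx3 1, 3 and 4. In CPM these are 5.16, 3.12, 1.46 and 0.863, and 11.9, 6.75 and 11.8. All 3 Runx3 libraries lay above all controls, and the controls themselves differed widely. Group means were 2.65 ± 1.93 CPM for control (SD, n = 4) and 10.1 ± 2.93 CPM for Runx3 (SD, n = 3). The fitted log2 fold change was 2.08 with an SE of 0.39 (adjusted p = 0.020 in edgeR). The call was lost without control 2, 3 or 4 or Runx3 1 or 4 (edgeR adjusted p from 0.054 to 0.36), without robust estimation (edgeR adjusted p = 0.062) and in DESeq2 (adjusted p = 0.24). Without control 2 or Runx3 1, edgeR called 0 peaks of the whole table, where the fit of all libraries called 42.

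The peak that fell was chr15:48415333-48415851, with its nearest neighbour 146 kb away on one side and no peak for 2370 kb on the other. It held 12, 25, 31 and 20 reads in controls 1 to 4 and 3, 4 and 5 reads in Runx3 1, 3 and 4. The Runx3 libraries were all below the controls, and Runx3 1 was at 3 reads. Group means were 7.68 ± 1.997 CPM for control (SD, n = 4) and 1.94 ± 0.298 CPM for Runx3 (SD, n = 3). The fitted log2 fold change was -1.96 with an SE of 0.40 (adjusted p = 0.032 in edgeR). This call was lost without control 2 or 3 or any 1 of the Runx3 libraries (edgeR adjusted p from 0.15 to 0.31), without robust estimation (edgeR adjusted p = 0.069) and in DESeq2 (adjusted p = 0.60).

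On each side, 4 more had the smallest p without passing. The peak chr9:12496735-12497318 had 3.61, 4.28, 9.61 and 5.18 CPM in controls and 14.97, 16.4 and 10.9 CPM with Runx3 (log2 fold change 1.24 ± 0.28 SE, edgeR adjusted p = 0.073). It is the last of 9 consecutive isolated peaks of that chromosome. On chromosome 15, chr15:44007450-44007887 had 3.48 ± 1.04 CPM in controls and 9.26 ± 2.75 with Runx3 (edgeR adjusted p = 0.085). At chr7:48156560-48156840 the controls held 3 or 4 reads each and the Runx3 libraries 10, 10 and 12, or 1.28 ± 0.335 and 5.30 ± 1.02 CPM (edgeR adjusted p = 0.14). The peak chr5:127018340-127019031 had 2.93 ± 1.99 and 7.47 ± 0.712 CPM (edgeR adjusted p = 0.21). In each of these 4 the lowest Runx3 library was above the highest control.

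Lower with Runx3 was chr18:3666111-3667274, the widest peak named here at 1164 bases. It had 17.6, 26.1, 26.5 and 26.5 CPM in controls and 13.1, 12.2 and 17.2 CPM with Runx3 (log2 fold change -0.78 ± 0.20 SE, edgeR adjusted p = 0.14). Control 1 lay close to Runx3 4 and apart from the other controls. The peak chr5:19586381-19587158 had 10.97 ± 2.23 and 4.91 ± 1.63 CPM (edgeR adjusted p = 0.14), and chr3:139893640-139894146 had 8.32 ± 1.66 and 4.27 ± 1.69 CPM (edgeR adjusted p = 0.30). At chr1:115800502-115800932 the values were 22.6 ± 8.17 and 14.5 ± 2.97 CPM, the groups overlapped, and control 3 was the highest library (edgeR adjusted p = 0.34). Without control 1, edgeR put 6 of these 8 peaks past the threshold, at adjusted p from 0.0070 to 0.046, and calls over all tested peaks went from 42 to 267.

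**Figure D4:**
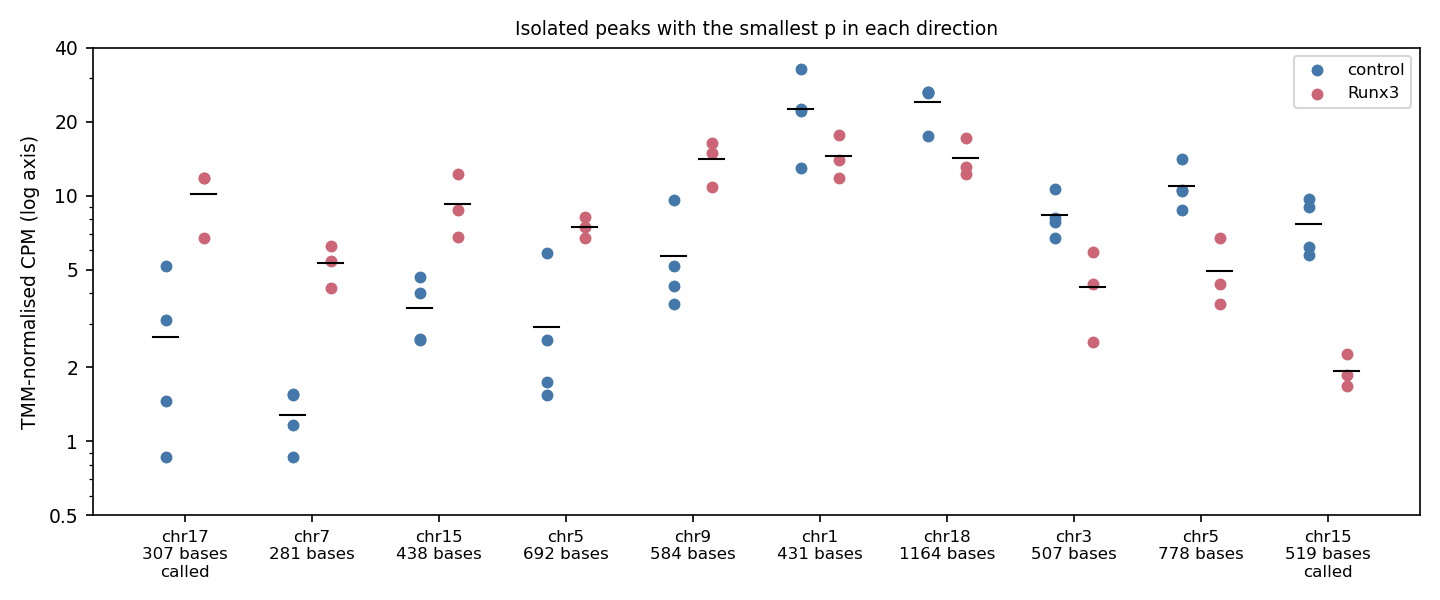
TMM-normalised CPM (log y axis) of the 2 called isolated peaks and of the 4 per direction with the next smallest p, ordered by log2 fold change from highest to lowest and named by chromosome and width. Points are libraries (4 control, 3 Runx3) and lines are group means; the chromosome 17 peak has 0.863 to 5.16 CPM in controls and 6.75 to 11.9 with Runx3.

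Below the threshold of a call, more isolated peaks leaned towards a higher level with Runx3. At an unadjusted p under 0.05 there were 86 of the 498 (17.3%), against 8.31% of all tested peaks and 9.80% of other tested peaks weighted to the same widths and counts. Of the 86, 63 were higher (12.7% of the 498) and 23 lower (4.62%). At that level 3.91% and 4.4% of all tested peaks were higher and lower, and 5.31% and 4.49% of the weighted peaks. The groups did not overlap in 45 peaks that were higher (9.04%) and in 16 that were lower (3.21%). These shares were 4.36% and 4.58% of all tested peaks, and 5.04% and 4.50% of the weighted peaks. A weak peak can pass the low-count filter through the group in which it is high, so the 498 are not a neutral selection. All 286 isolated peaks that averaged 16 counts or more passed the filter. Among these, 36 were higher (12.6%) and 13 lower (4.55%) at an unadjusted p under 0.05, against 5.79% and 5.09% of the other peaks weighted to the same widths and counts.

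The excess of higher peaks moved with 1 library. Without Runx3 4 there were 31 higher among 584 tested isolated peaks, or 5.31%, where 2.70% of all tested peaks were higher. Leaving out any other library gave from 52 to 77, or 11.8% to 13.9%. The number of lower peaks went from 23 to 40 of 497 without control 1 (8.05%, where 5.85% of all tested peaks were lower), to 15 without control 2 and to 12 without control 3. Tested isolated peaks in Runx3 4 had a median deviation of 0.15 (log2) from their own mean over the 7 libraries, the highest of any library, and those in control 1 had -0.23, the lowest. In matched other peaks these deviations were 0.03 and -0.02.

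**Figure D5:**
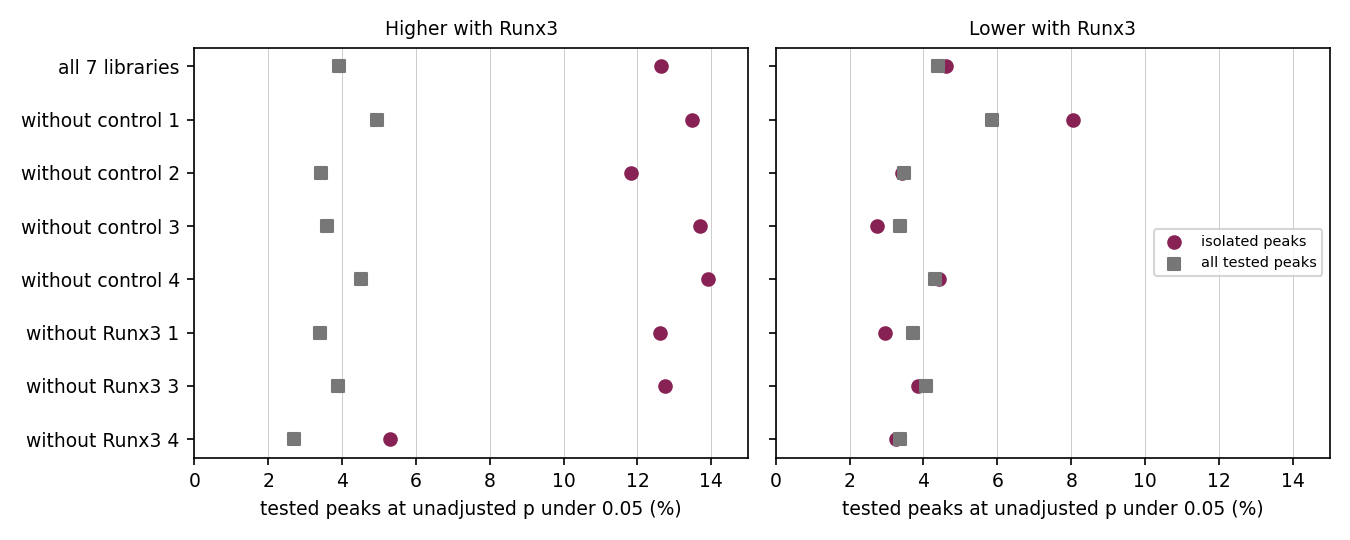
Percent of tested peaks at an unadjusted p under 0.05 (x axis; edgeR), higher or lower with Runx3, for all 7 libraries and with each library left out in turn (y axis). Circles are isolated peaks and squares all tested peaks; the circles for higher peaks lie between 11.8% and 13.9% except without Runx3 4, where the value is 5.31%.

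Fitted changes of the tested isolated peaks centred near 0. Over the 498, the log2 fold change had a median of 0.06, against -0.01 over all tested peaks and 0.01 over other tested peaks weighted to the same widths and counts. Of the 498, 277 (55.6%) were above 0, against 48.8% of all tested peaks and 51.0% of the weighted peaks. For the 286 that averaged 16 counts or more the median was 0.02, and 149 of the 286 were above 0. For all 1560, fitted without the low-count filter, the median was 0.14. Leaving out 1 library moved the median of the tested peaks between 0.02 (without control 1) and 0.10 (without Runx3 3, and also without control 3). The fitted changes spread wider than elsewhere, with a median size of 0.29 (log2) against 0.18 over all tested peaks and 0.23 over the weighted peaks. Changes beyond 2-fold were fitted in 38 of the 498 (7.63%), where 1.44% of all tested peaks and 2.59% of the weighted peaks had them. They were fitted in 32 of 492 (6.50%) once the 6 peaks of the library sets were left out.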

How the data were processed

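The values deposited by the authors are raw counts of reads in each peak of 7 libraries, not normalized. The tools named in the submitters' processing notes are MACS2, Bowtie2, Picard, SAMtools, Trim Galore and FastQC, with the build mm9. How the peak set was made, and whether reads were shifted for the transposase, is not given in the sources used here. The table does not say whether starts count from 0 or 1.

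Counts of all peaks were fitted with edgeR 4.0.16 in R 4.3.3 (filterByExpr with minimum count 10 and minimum total 15, TMM, robust quasi-likelihood test, no block, Benjamini-Hochberg adjustment over 57504 peaks, threshold 0.05). DESeq2 1.42.0 was an alternative. The fit was checked on simulated data. The SE of a log2 fold change is its size over the square root of F. CPM used the TMM-scaled totals of tested peaks, and 3 reads are 0.863 to 1.87 CPM. Counts carry no molecular identifiers.

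Other peaks were weighted, without random draws, by classes of 50 bases of width, and where stated also by mean count (class limits 2, 4, 8, 16, 32, 64 and 128). Single values per library were compared by exact permutation tests (SciPy 1.17.1). Every pair of libraries within a group differed by more than sampling noise (mean chi-square 1.18 to 2.25 for each degree of freedom).

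Peaks named are those called, the 4 next per direction, the 6 highest, the 4 most distant with neighbours on both sides, the 4 least even, the 2 nearest the median and the 3 deepest of the library sets. Members, lists and this rule were chosen with earlier results of these data known.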

Additional observations from a re-analysis of the deposited data

Results flagged for a closer look

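The share of isolated peaks with no read was 7.69% in control 1, and its gap to the other controls (1.86% to 2.69%) took most of the range of the 4. Control 1 also had the lowest total count of the controls (2188113). In width-weighted other peaks the share with no read was 3.04% in control 1 and 0.70% to 1.36% in the other controls. The part of depth in this was not tested. At chr18:3666111-3667274, control 1 had 17.6 CPM, where the other 3 controls had 26.1, 26.5 and 26.5 CPM. Of 31 values examined for a control library far from the rest, 2 stood out, both in control 1, where chance gives about 1.55.

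The 1062 isolated peaks left out by the low-count filter were searched for a Runx3 library with 10 reads or more whose level was 8-fold or more over the highest control (0.5 CPM added to both). None was found, nor any in the opposite direction. The rule was strict for these peaks, which had a median mean count of 4.71 reads per library. In Runx3 4, where 1 read is 0.454 CPM, 10 reads pass only if every control is without reads. In control 3, where 1 read is 0.291 CPM, 10 reads fall short of 8-fold even against libraries without reads. The empty result therefore carries little information on differences in these peaks.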

How the results depend on the processing

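The lower level of isolated peaks relative to width-weighted other peaks kept its direction and passed its test in every setting tried, with a log2 ratio from -0.41 (distance of 50 kb) to -0.31 (mean in place of median CPM), or -0.83 without width matching. The higher share and level ratio with Runx3 kept their direction in every setting. Their exact permutation p cannot fall below 0.0571 with 4 and 3 libraries, nor with fewer. These tests therefore could not pass 0.05 in any setting, and their not passing carries no information. Leaving out 1 library gave 0 to 5 called higher and 0 to 5 called lower, where calls among all tested peaks ran from 0 to 267. At an unadjusted p under 0.05 there were 31 to 77 higher (5.31% to 13.9%) and 12 to 40 lower (2.74% to 8.05%). Among all tested peaks these shares were 2.70% to 4.96% and 3.35% to 5.85%. The median chi-square per degree of freedom was 1.31 to 1.41. Without control 2, Runx3 1 or Runx3 4 edgeR called no isolated peak, and 0, 0 and 7 peaks among all tested. At an unadjusted p under 0.05 these fits gave 52 and 15, 77 and 18, or 31 and 19 isolated peaks higher and lower. Without the low-count filter 6 isolated peaks were called higher (73 calls among all 98723 peaks), and 184 were higher and 46 lower at an unadjusted p under 0.05 among 1560 (11.8% and 2.95%, against 3.95% and 4.02% of all peaks). DESeq2 called 0 and 0 isolated peaks, and 3 among all 98723 peaks. It had 97 higher and 11 lower at an unadjusted p under 0.05 (6.22% and 0.705%, against 1.66% and 1.59% of all peaks). Without robust estimation 1 was called higher and 0 lower, with 18 calls among all tested peaks. At an unadjusted p under 0.05, 65 were higher and 29 lower (13.1% and 5.82%, against 3.86% and 4.38% of all tested peaks). With the library set as a term 2 were called higher and 1 lower, with 51 calls among all tested peaks. In that fit 37 were lower at an unadjusted p under 0.05 (7.43%, against 4.61% of all tested peaks). At an adjusted p under 0.10, 3 were higher. With isolation at 50 kb, which 2645 peaks met, tested or not, 95 were higher and 42 lower (unadjusted). Their share among tested peaks was not computed. At a mean count of at least 16 there were 36 and 13 (12.6% and 4.55% of 286). The spread was 1.61 at a mean count of at least 10, and a 4-fold limit put 10 isolated peaks in the library-set list. More peaks qualify at 50 kb and without the filter, and fewer at the higher minimum counts; the cause of the other shifts was not tested.

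The data bore out a pairing by replicate number only weakly and in part. Deviations of same-numbered libraries correlated at 0.13, 0.11 and 0.07 for numbers 1, 3 and 4. Each Runx3 library correlated best with the control of its number, while control 4 correlated best with Runx3 3. With the number as a replicate block, 4 were called higher and 5 lower, with 101 calls among all 57504 peaks against 42 without it. Under the block chr15:48415333-48415851 lost its call (edgeR adjusted p = 0.053) and chr5:127018340-127019031 gained one (edgeR adjusted p = 0.034). The paired difference in share was 0.0739 percentage points (exact permutation p = 0.50, where 0.25 is the smallest for 3 pairs). Depth limits what can be read from the 1062 isolated peaks that the low-count filter left out, with a median of 4.71 reads per library.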

Other observations

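Isolated peaks often followed one another along a chromosome, with no other open site between them. Of the 1560, 925 belonged to 349 runs of 2 or more consecutive isolated peaks, and 635 stood between peaks that were not isolated. There were 21 runs of 5 or more. The longest held 12 peaks between 28472314 and 31950938 on chromosome 8, a stretch of 3479 kb in which 2 peaks were deep enough to test. Their summed level was 48.8 ± 7.37 CPM in controls (SD, n = 4) and 52.2 ± 12.2 CPM with Runx3 (SD, n = 3). The next held 9 peaks between 9539209 and 12497318 on chromosome 9, with 24.8 ± 10.9 and 33.0 ± 2.58 CPM. In both runs the groups overlapped.

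The most accessible peak of the table stood in a run of 8 isolated peaks between 58475243 and 62959356 on chromosome 5, whose median level was 1.72 CPM. A run of 7 between 18990927 and 21586389 on chromosome 15 had summed levels of 35.1, 41.7, 41.9 and 50.6 CPM in controls 1 to 4 and 55.5, 58.2 and 61.3 CPM with Runx3. Its groups did not overlap, and 2 of its 3 tested peaks were higher at an unadjusted p under 0.05. It is 1 of the 5 longest runs, which were looked at together, and no test was made. The 483 isolated peaks in runs of 3 or more had a median of 2.23 CPM, against 2.57 CPM for the rest.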
